A study of Mus musculus with 9 samples.

Results

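NMDA receptors are glutamate-gated cation channels of excitatory synapses, and in the hippocampus they are known for their part in synaptic plasticity, learning and memory. Each channel combines obligatory GluN1 subunits, which bind the co-agonist glycine or D-serine, with GluN2 subunits, which bind glutamate and set the kinetics and magnesium block of the channel, or with GluN3 subunits, which bind glycine and lower calcium permeability. The genes of this family are Grin1 (GluN1), Grin2a, Grin2b, Grin2c and Grin2d (GluN2A to GluN2D), and Grin3a and Grin3b (GluN3A and GluN3B).

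The transcripts of these 7 genes were followed on every gene array probe that carries one of their names in the array annotation, control spots excluded. The genes were 7 of the 31093 gene names on the array, and their probes were 11 of its 39429, 2 each for Grin1, Grin2a, Grin2b and Grin3a and 1 each for Grin2c, Grin2d and Grin3b, each printed as a single spot. All 11 were well above background on all 9 arrays, and none was saturated. For genes with 2 probes, the probe with the higher mean signal is called the brighter probe and the other the dimmer probe. These are names only, because the brightness of different probes on an array cannot be set against each other.

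The arrays held RNA from the hippocampus of male C57BL/6J mice aged 9 months, 3 IF1-KO, 3 CRL and 3 IF1-TG mice, with 1 mouse per array. IF1, encoded by Atpif1, is the inhibitor of the mitochondrial ATP synthase. In IF1-KO mice a floxed part of Atpif1 is removed by a Cre recombinase under the Camk2a promoter, which is active mainly in excitatory forebrain neurons, so glia, most interneurons and other cells keep the gene. In IF1-TG mice human IF1 is expressed from a tetracycline-responsive transgene through a transactivator under the same promoter. CRL mice are the controls. For cultured embryonic neurons the study's methods give CRL as Atpif1+/+ with Cre, and the controls of the transgenic cross as wild type or carriers of the transactivator alone, but the alleles of the CRL mice on the arrays are not given in the sources used here.

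Signals are given as log2 of the background-subtracted intensity minus the 75th percentile of that array's own signals, so that 0 is the signal of the probe at that percentile. The targeted gene was examined first. Atpif1 in the libraries with the IF1-KO label was 6.43 in replicate 1, 5.20 in replicate 2 and 5.53 in replicate 3, against 6.19 to 6.34 on the CRL arrays and 6.38 to 6.51 on the IF1-TG arrays. Replicate 1 was not reduced and so went against its label. The Atpif1 difference from CRL was -0.56 with it, which did not pass an unadjusted limma P of 0.05, and -0.91 without it, which did. The main IF1-KO results are therefore also given without this array. Camk2a, whose promoter drives both lines, differed from CRL by 0.09 in IF1-KO and by 0.36 in IF1-TG mice (limma, adjusted P = 1.00 and adjusted P = 0.625). All 10 markers of hippocampal excitatory neurons were well above background on every array. Of 8 markers of cerebellar granule cells, 6 passed the filter and were well above background on every array, and 1 was so on none. IF1-TG replicates 1 and 2 were on slide 1. Slide 2 held all genotypes, with CRL replicates 1 and 2 beside IF1-TG replicate 3 and IF1-KO replicate 1. CRL replicate 3 shared slide 3 with IF1-KO replicates 2 and 3. Precision is limited by the small number of arrays. The share of probes well above background was 67.4 to 70.4% on the IF1-TG arrays, 71.9 to 73.6% on the IF1-KO arrays and 73.0 to 75.6% on the CRL arrays, and its part in the differences was not tested. Fewer cells of a type and less RNA per cell cannot be told apart in whole tissue.

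The probes are 60 bases long, and a stretch of 30 bases is shown for the 7 probes on which the comparisons below turn, the paired probes of Grin1, Grin2b and Grin3a and the single probe of Grin2c, because members of a pair gave different results. Capitals mark the hexamer ATTAAA, a variant of the polyadenylation signal.
Grin1 brighter probe: tctcttctgtctgcagccacaataggcttc
Grin1 dimmer probe: agacacagtgctgccgcgacgcgctattga
Grin2b brighter probe: ctcatttaaatgccaactgaaggccttgtt
Grin2b dimmer probe: ggaaggccattgaacctcctgctcctaaga
Grin2c: gaacattgggacATTAAAgcaacgttttac
Grin3a brighter probe: tatgaaaatgaagtgcttctaagtatttcc
Grin3a dimmer probe: gagcttgaggagtatcaaaggacgaaccgg

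Among the 11 probes, only that of Grin2c contained ATTAAA or AATAAA on the printed strand, from base 37 of the probe, whereas 17.9% of the 27991 probes kept for testing contained 1 of the hexamers. The Grin1 probes were rich in G and C, each 55.0%, and the Grin2b brighter probe was poor in them, 33.3%, against a median of 43.3% over the kept probes. In the array annotation, on mm9, the Grin1 brighter probe lies on chromosome 2 from 25146927 to 25146986 and the dimmer probe 995 bases away, from 25147922 to 25147981. The Grin2b brighter probe lies on chromosome 6 from 135680066 to 135680125 and the dimmer probe from 135681653 to 135681712, 1587 bases apart. The Grin3a brighter probe lies on chromosome 4 from 49674688 to 49674747 and the dimmer probe from 49678098 to 49678157, 3410 bases apart. The Grin2c probe lies on chromosome 11 from 115110483 to 115110542. These genes are on the minus strand, so in each pair the brighter probe is nearer the 3′ end of the gene. The Grin2a probes, on chromosome 16, were 1535 bases apart. An mm9 gene model was not used here, so exon and coding position were not assigned.

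In IF1-KO mice compared with CRL, the question was whether loss of IF1 in excitatory neurons goes with altered transcripts of the receptor. All 11 probes had a higher mean in IF1-KO than in CRL, with a median log2 difference of 0.17, but no difference passed the unadjusted threshold, a limma P under 0.05. Over all kept probes 48.2% were higher and the median was -0.01. Of all kept probes, 1.39% were higher and 1.18% lower at that threshold, and 1.06% also reached a fold change of 1.5. All 11 had a Benjamini-Hochberg adjusted P of 1.00 (limma), so the values below are given with their SE or interval alone. The members of the family share their arrays and were not independent, so the shared direction carries no test of its own.

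**Figure D1:**
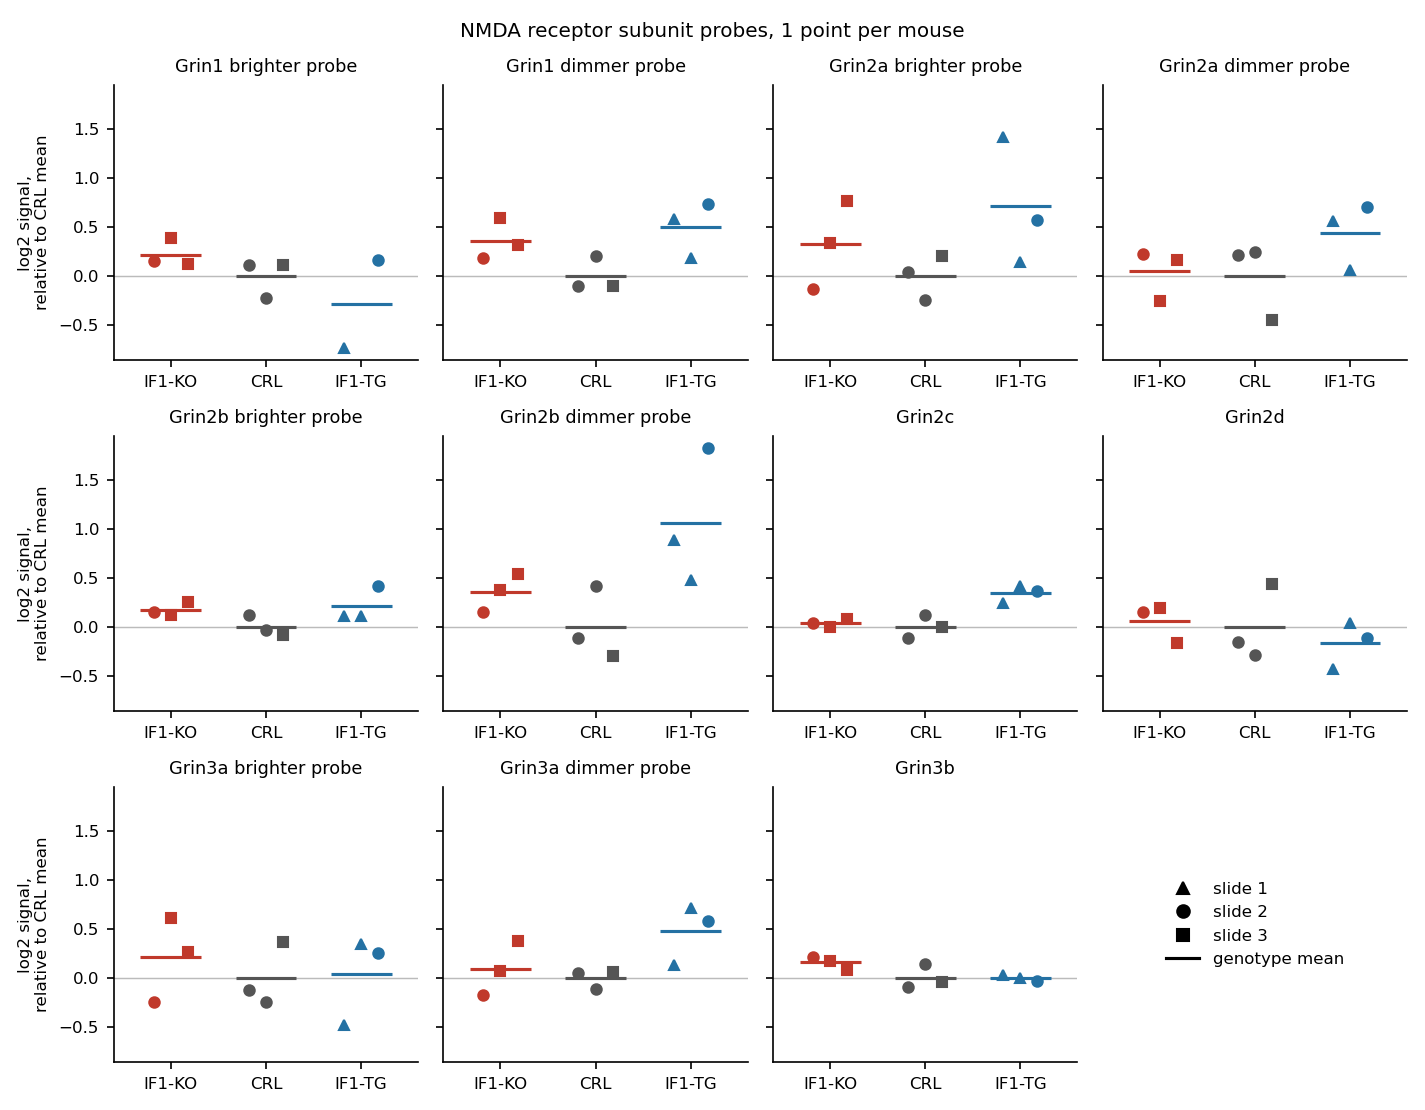
Signal of the 11 NMDA receptor subunit probes on each array. Each panel is a probe, the y axis is the log2 signal minus the mean of the CRL arrays, each point is a mouse with its slide shown by the symbol, and bars are genotype means. The mean bar of IF1-KO lies above that of CRL in every panel while points overlap in all but the Grin1 brighter probe. The Grin2b dimmer probe and Grin2c lie highest in IF1-TG mice.

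Grin1, which encodes the subunit present in every receptor, came nearest to the threshold in IF1-KO mice. The Grin1 dimmer probe gave -3.37, -2.96 and -3.24 on IF1-KO replicates 1 to 3 and -3.65, -3.35 and -3.66 on the CRL arrays. CRL replicate 2 was above IF1-KO replicate 1, so the genotypes overlapped by 1 array. The difference was 0.36 (SE 0.18, n = 3 per genotype), a fold change of 1.28 with a 95% confidence interval of 0.962 to 1.71. The Grin1 brighter probe gave 3.02, 3.25 and 2.99 on the IF1-KO arrays and 2.99, 2.65 and 2.98 on the CRL arrays. It was the only 1 of the 11 probes whose arrays did not overlap, and 8% of all kept probes measured on every array of both genotypes did not overlap. IF1-KO replicate 3 and CRL replicate 1 were nearly level, and the difference of the means was 0.22 (SE 0.24).

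The GluN2 genes differed less clearly between IF1-KO and CRL. GluN2A and GluN2B are the main GluN2 subunits of adult hippocampal neurons. The Grin2a brighter probe gave -0.17, 0.30 and 0.73 on the IF1-KO arrays and 0.00, -0.28 and 0.16 on the CRL arrays. IF1-KO replicate 1 lay within the CRL range and the other IF1-KO arrays above it, for a difference of 0.32 (SE 0.34). The Grin2b brighter probe gave 1.32, 1.29 and 1.42 on the IF1-KO arrays and 1.29, 1.14 and 1.09 on the CRL arrays. IF1-KO replicate 2 and CRL replicate 1 were level at 1.29, and the difference of 0.17 (SE 0.13) had a 95% confidence interval of -0.12 to 0.46. The Grin2b dimmer probe differed by 0.36 (SE 0.33) and the Grin2a dimmer probe by 0.04 (SE 0.25). Grin2c, the gene of a subunit best known from cerebellar granule cells, thalamus and astrocytes, differed by 0.04 with a 95% confidence interval of -0.21 to 0.29. Grin2d, the gene of a subunit found in interneurons and the early brain, differed by 0.06 with an interval of -0.44 to 0.55.

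The GluN3 genes gave similar small differences. Grin3b, best known from motor neurons, gave -4.34, -4.38 and -4.48 on the IF1-KO arrays and -4.65, -4.42 and -4.60 on the CRL arrays. Its arrays lay close together within each genotype, and CRL replicate 2 lay within the IF1-KO range. The difference was 0.16 (SE 0.11). Grin3a, which is highest in young brain, differed by 0.21 on the brighter probe (SE 0.29) and by 0.09 on the dimmer probe (SE 0.19).

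**Figure D2:**
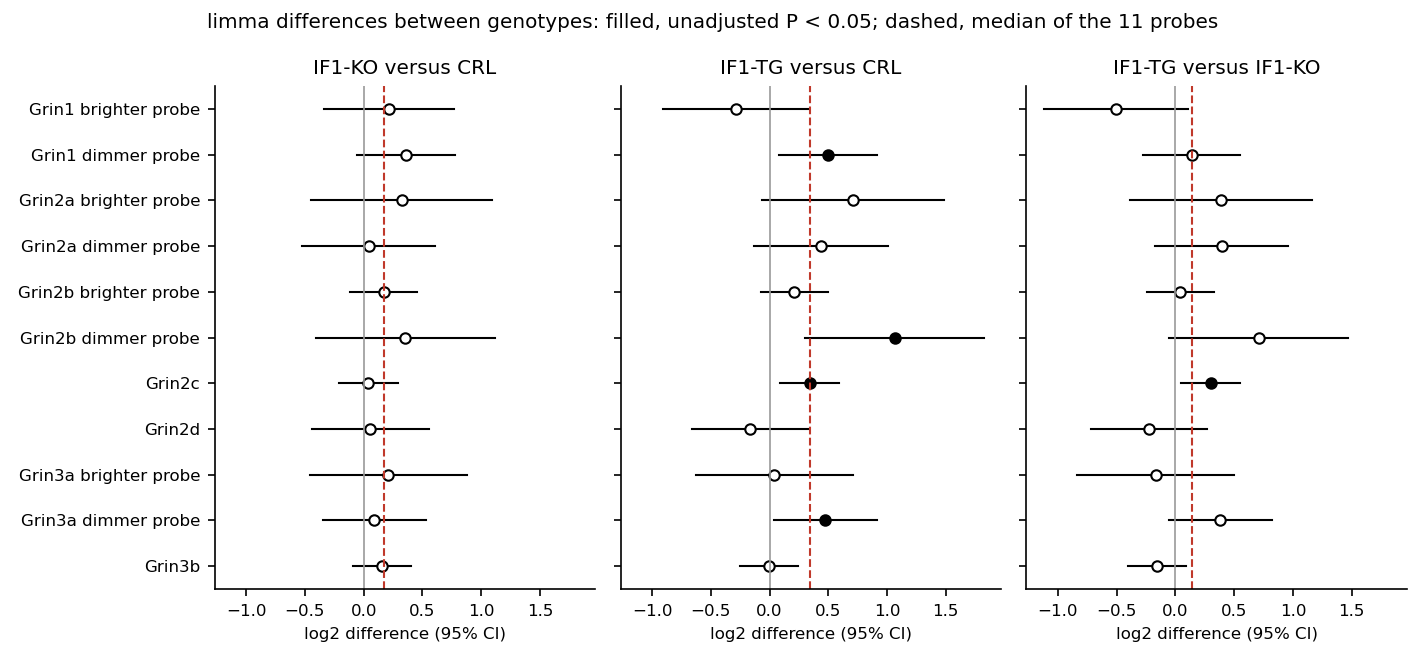
Log2 differences of the 11 probes for the 3 pairs of genotypes, with 95% confidence intervals from the limma fit of all 9 arrays. Filled points have an unadjusted P below 0.05 and the dashed line is the median of the 11 probes, which was 0.17, 0.34 and 0.14 from left to right. By the brightest probe of each gene the medians were 0.17, 0.04 and -0.16, so the direction flips in the right panel. All intervals cross 0 in the left panel, 4 lie above 0 in the middle panel and 1 lies above 0 in the right panel.

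The values differed between slides, but the slides cannot be told apart from the array that went against its label, the only IF1-KO array on slide 2. With slide as a fixed block the median of the 11 probes was 0.17, as without it, and 10 were higher. Within slide 2, with IF1-KO replicate 1 alone, 7 of 11 probes were higher than the mean of CRL replicates 1 and 2, with a median of 0.04. Within slide 3, where the mean of IF1-KO replicates 2 and 3 was set against CRL replicate 3, 10 of 11 were higher, with a median of 0.17. The exception was Grin2d, which was 0.37 higher within slide 2 and -0.43 within slide 3. Both Grin2a and both Grin3a probes also changed sign, from between -0.15 and -0.001 within slide 2 to between 0.07 and 0.41 within slide 3. Leaving out IF1-KO replicate 1, whose Atpif1 was not reduced, 10 of 11 probes were higher, with a median of 0.225, and again none passed the unadjusted threshold. The Grin1 dimmer probe then differed by 0.45, the Grin2a brighter probe by 0.55, the Grin2b dimmer probe by 0.46 and the Grin3a brighter probe by 0.44. Over the omissions of each of the 9 arrays these differences ranged from 0.245 to 0.46, from 0.10 to 0.55, from 0.21 to 0.56 and from 0.01 to 0.44, in that order. The Grin3a dimmer probe differed by 0.225, the Grin1 brighter probe by 0.25 and the Grin2b brighter probe by 0.18. The Grin2a dimmer probe turned to -0.05, Grin2c stayed at 0.04, and Grin2d and Grin3b were at 0.01 and 0.13. Marker genes of oligodendrocytes were lower in IF1-KO than in CRL for 8 of 10 genes, with a median log2 difference of -0.31 and none past the unadjusted threshold. Their summed log2 level was 6.46 to 7.0 on the IF1-KO and 6.88 to 7.26 on the CRL arrays, and overlapped. Microglia markers were lower for 7 of 10 genes, with a median of -0.08 and none past the threshold. Their summed level of 5.79 to 5.96 on the IF1-KO arrays lay below the 6.0 to 6.12 of the CRL arrays without overlap. The summed level gives most weight to the brightest genes of a list. By the mean log2 level the microglia markers overlapped, at 1.74 to 1.78 on the IF1-KO and 1.69 to 1.91 on the CRL arrays. The 6 measured striatum markers were all lower in IF1-KO, with a median of -0.36, and 1, Adora2a, passed both thresholds at -1.16 (limma adjusted P = 1.00). Their summed level was 2.99 to 3.23 on the IF1-KO and 3.16 to 3.94 on the CRL arrays. By the mean log2 level over the 6 genes CRL replicate 3 stood apart, at 0.10 against -1.30 to -0.91 on the other 8 arrays. By the summed level it was highest at 3.94 but did not stand apart, with IF1-TG replicate 1 at 3.73. The same 6 markers were also all lower in IF1-TG than in CRL, with a median of -0.37, and Adora2a passed both thresholds there too, at -0.96 (limma adjusted P = 0.581). Adora2a falls outside the naming rule and was named with its value known. Of 8 choroid plexus markers 7 were lower, with a median of -0.48, and their summed level spread from 1.12 to 6.61 on the IF1-KO and from 1.76 to 6.91 on the CRL arrays. The part of these markers in the receptor values was not tested.

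**Figure D3:**
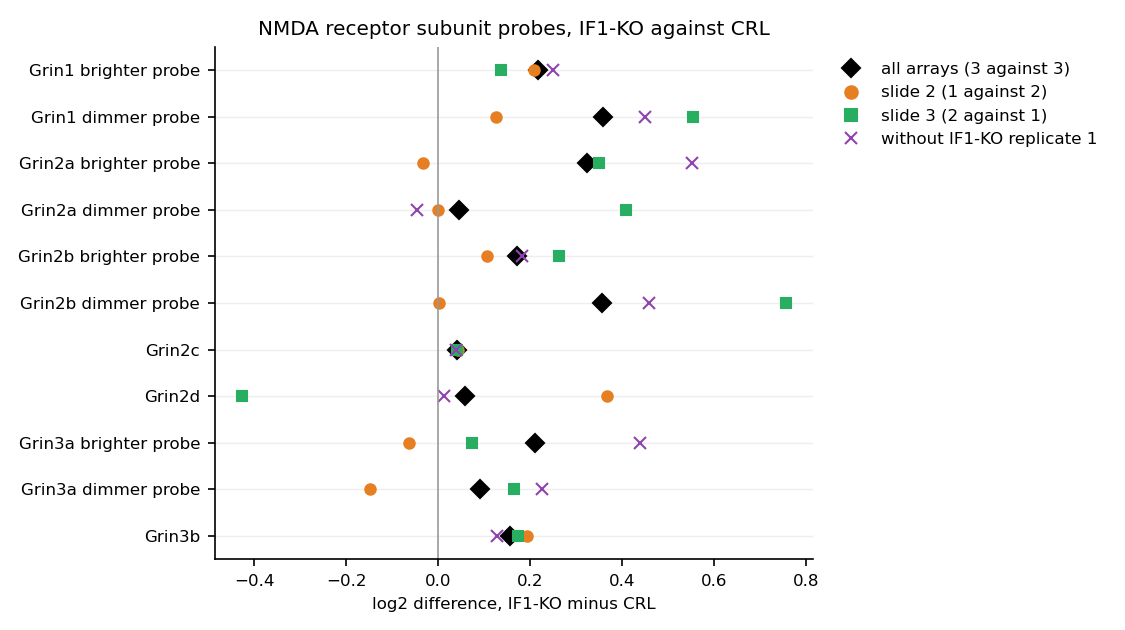
IF1-KO minus CRL log2 differences of the 11 probes over all arrays, within slides 2 and 3 and without IF1-KO replicate 1. Slide 2 values scatter around a median of 0.04 and slide 3 values around 0.17. Grin2c and Grin3b change little between them. Grin2d turns from above to below 0, and both Grin2a and both Grin3a probes turn from below 0 on slide 2 to above 0 on slide 3.

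In IF1-TG compared with CRL mice, 8 probes were higher and 3 lower, with a median log2 difference of 0.34 against 0.00 over all kept probes. Counting each gene once by its brightest probe, 4 of 7 subunits were higher and 3 lower, the median was 0.04, and only Grin2c was at an unadjusted P under 0.05. The 4 probes at an unadjusted P under 0.05 were all higher, the Grin1, Grin2b and Grin3a dimmer probes and Grin2c, whereas of all kept probes 4.54% were higher and 3.98% lower. The Grin1 and Grin3a dimmer probes had low processed intensities over the arrays, 153 to 302 and 190 to 304. Those of their brighter partners, which did not pass, were 7145 to 22501 and 760 to 2344. Only the Grin2b dimmer probe also reached a fold change of 1.5, which 4.47% of kept probes did. The arrays of the Grin2b dimmer probe, Grin2c and the Grin3a dimmer probe did not overlap, and neither did those of 12.2% of kept probes. The smallest adjusted P of the family was 0.501 (limma), so none passed the adjustment over all kept probes. Within slide 2, where IF1-TG replicate 3 was set against the mean of CRL replicates 1 and 2, 10 of 11 probes were higher, with a median of 0.44. The median of the 11 probes was 0.46 under a fixed slide block, and 0.22 when CRL replicate 3 was dropped. All 8 choroid plexus markers (median 0.39) and 3 of 10 interneuron markers (median -0.16) were higher in IF1-TG than in CRL. Their summed levels overlapped, and none passed the unadjusted threshold on its brightest probe. On another probe, 1 interneuron gene was lower past both thresholds. The part of these markers in the subunit values was not tested.

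The Grin2b dimmer probe gave 0.76, 0.36 and 1.70 on IF1-TG replicates 1 to 3 and -0.24, 0.29 and -0.42 on the CRL arrays. IF1-TG replicate 3 stood far above the other arrays, and IF1-TG replicate 2 lay just above CRL replicate 2. The difference was 1.06 (SE 0.33, n = 3 per genotype, limma adjusted P = 0.501), a fold change of 2.09 with a 95% confidence interval of 1.23 to 3.54. Without IF1-TG replicate 3 it was 0.68 and still passed the unadjusted threshold. A fixed slide block gave 1.80, but slide 1 held only IF1-TG arrays. Every IF1-TG value under this block therefore rests on IF1-TG replicate 3 alone, with its spread assumed to be that of the other arrays. The Grin2b brighter probe gave 1.28, 1.29 and 1.59 on the IF1-TG arrays against 1.09 to 1.29 on the CRL arrays. It too was highest on IF1-TG replicate 3, but the genotypes overlapped and its difference was 0.21 (SE 0.13, limma adjusted P = 0.674), or 0.40 under the fixed slide block.

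Grin2c had the most even increase in IF1-TG mice. It gave 1.34, 1.52 and 1.47 on the IF1-TG arrays, 1.15, 1.10 and 1.18 on the IF1-KO arrays and 0.99, 1.22 and 1.10 on the CRL arrays. Every IF1-TG array was above all others, for a difference from CRL of 0.34 (SE 0.11, limma adjusted P = 0.506), a fold change of 1.27 with a 95% confidence interval of 1.06 to 1.51. The residual SD of Grin2c between mice of a genotype was 0.0881, against a median of 0.244 over the kept probes. With slide as a fixed block, the difference was 0.37, and without CRL replicate 1 it was 0.28, and neither passed the unadjusted threshold. The summed log2 level of 10 astrocyte markers was 7.58 to 7.88 on the IF1-TG arrays against 7.42 to 7.59 on the CRL and 7.47 to 7.56 on the IF1-KO arrays, 6 of 10 had a higher mean in IF1-TG than in CRL, and 2, Aldoc and Fgfr3, named with their values known, were higher past the unadjusted threshold on their brightest probe. Thalamus markers summed to 3.73 on IF1-TG replicate 2, the array with the highest Grin2c signal, and to between 2.06 and 2.48 on the other arrays. The lowest of these, 2.06, was on IF1-TG replicate 3, the array with the next highest Grin2c signal, 1.47. Of the 8 thalamus markers 6 were higher in IF1-TG than in CRL, 1 of them past the unadjusted threshold. The part of these markers in the Grin2c difference was not tested.

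The remaining Grin1 and Grin3a results depended on the probe. The Grin1 dimmer probe gave -2.97, -3.37 and -2.82 on IF1-TG replicates 1 to 3 and differed from CRL by 0.50 (SE 0.18, limma adjusted P = 0.547), although IF1-TG replicate 2 lay below CRL replicate 2. The Grin1 brighter probe gave 2.14 and 3.03 on IF1-TG replicates 1 and 3, and its spot on IF1-TG replicate 2 was marked as an outlier and left out. IF1-TG replicate 1 was lowest of all arrays on this probe, although it was high on the dimmer probe. The difference from CRL was -0.29 (SE 0.26, n = 2 against 3, limma adjusted P = 0.789). It was -0.74 for IF1-TG replicate 1 alone and 0.16 for IF1-TG replicate 3 alone, each a single array without a spread of its own. The Grin3a dimmer probe gave -3.10, -2.52 and -2.65 on the IF1-TG arrays and -3.18, -3.34 and -3.17 on the CRL arrays. Every IF1-TG array was above every CRL array, for a difference of 0.47 (SE 0.19, limma adjusted P = 0.565). The Grin3a brighter probe differed by 0.04 (SE 0.29, limma adjusted P = 0.980), with IF1-TG replicate 1 lowest of all arrays at -1.10. This array also stood apart in marker genes. The summed level of 10 interneuron markers was 6.95 on it and 7.52 to 8.03 on the others, and that of 8 choroid plexus markers was highest on it, at 7.53 against 1.12 to 6.91, and their part in its subunit values was not tested. The Grin3a dimmer probe no longer passed the unadjusted threshold when any single CRL array, IF1-TG replicate 2 or 3, or IF1-KO replicate 2 was left out, with differences of 0.35 to 0.50, or with slide as a fixed block, at 0.66. The Grin1 dimmer probe no longer passed without CRL replicate 1 or 3 or IF1-TG replicate 1 or 3, with differences of 0.38 to 0.46.

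The Grin2a probes were both higher in IF1-TG mice without reaching the threshold. The brighter probe gave 1.38, 0.10 and 0.53 on the IF1-TG arrays, the highest value being on replicate 1, and differed from CRL by 0.71 (SE 0.34, limma adjusted P = 0.612). The dimmer probe differed by 0.44 (SE 0.25, limma adjusted P = 0.662). Both depended on single arrays. The brighter probe differed by 0.36 without IF1-TG replicate 1 and by 0.99, past the unadjusted threshold, without IF1-TG replicate 2, and the dimmer probe ranged from 0.21 to 0.63 over the arrays left out, passing only without IF1-TG replicate 2. Without that array 5 of the 11 probes passed the unadjusted threshold, compared with 1 without CRL replicate 1 and 2 without CRL replicate 3. Grin2d and Grin3b were not higher in IF1-TG. Grin2d differed by -0.17 with a 95% confidence interval of -0.66 to 0.33, and Grin3b had equal means to the second decimal, with a 95% confidence interval of -0.25 to 0.24.

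**Figure D4:**
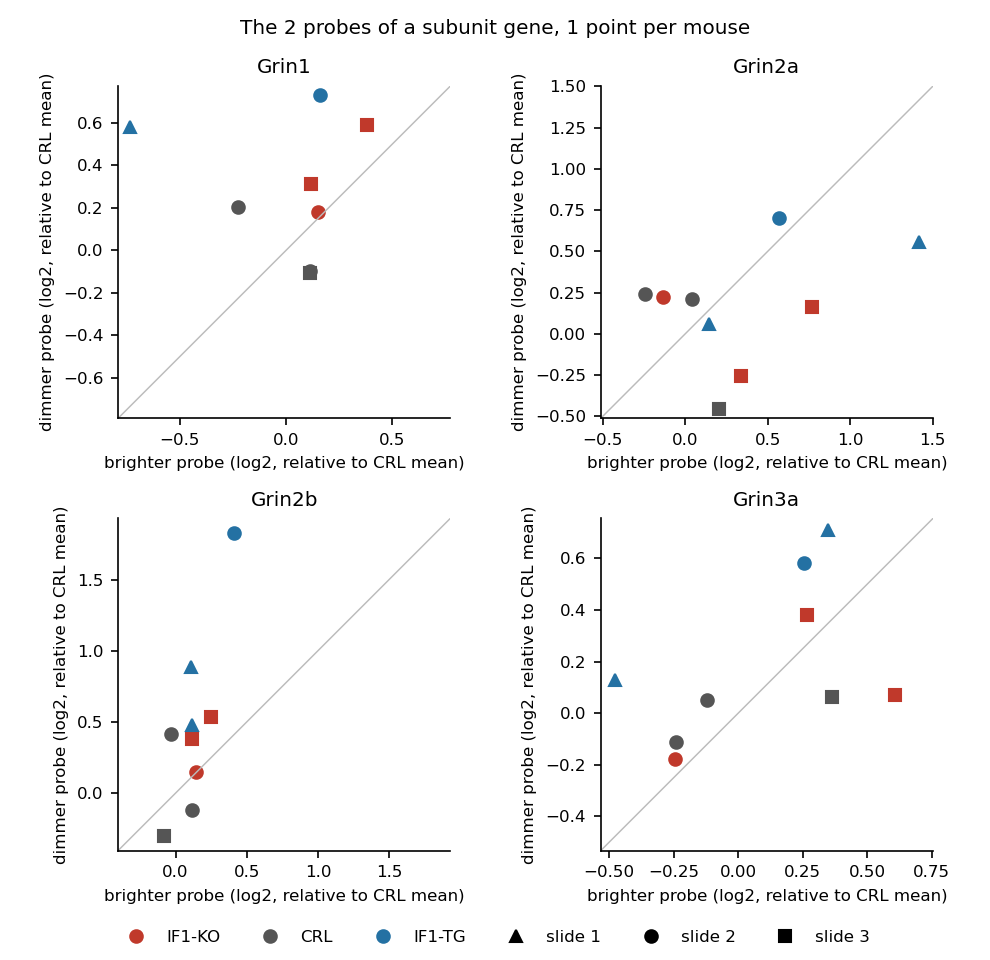
The 2 probes of Grin1, Grin2a, Grin2b and Grin3a on each array, brighter probe on the x axis and dimmer probe on the y axis, both as log2 signal minus the CRL mean. Points are mice coloured by genotype, symbols are slides, and the grey line marks equal change. Grin2b points of IF1-TG mice lie above the line, and 1 IF1-TG point of Grin1 lies far to the left of the others.

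Across arrays, the probes of a gene followed each other to different degrees. Pearson's r between the brighter and the dimmer probe was 0.78 for Grin2b, 0.48 for Grin3a and 0.38 for Grin2a over 9 arrays, and -0.15 for Grin1 over 8 arrays. Spearman's rho was 0.40, 0.38, 0.08 and 0.43 in the same order. These are descriptions over arrays that share genotypes and slides, and IF1-TG replicate 3 was highest on both Grin2b probes. Several probes followed Camk2a over 9 arrays, with r = 0.90 for the Grin2b dimmer probe, 0.75 for Grin2c, 0.70 for the Grin1 dimmer probe and 0.68 for both the Grin2a dimmer and the Grin2b brighter probe, whereas r was between -0.28 and 0.48 for the other 6, Grin1 brighter over 8 arrays. Camk2a was also highest on IF1-TG replicate 3, at 3.35 against 2.50 to 2.87 on the other arrays.

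For IF1-TG against IF1-KO, 7 probes were higher in IF1-TG and 4 lower, with a median of 0.14 against 0.01 over all kept probes. By the brightest probe of each gene the direction turned, with 3 of 7 subunits higher and 4 lower and a median of -0.16. A fixed slide block gave a median of 0.34 over the 11 probes. Within slide 2, which held 1 array of each, 9 of 11 were higher, with a median of 0.48. The median depended on single arrays. Leaving out IF1-KO replicate 1 lowered it to 0.05 and leaving out IF1-TG replicate 3 to 0.02. It came to 0.24 when IF1-KO replicate 2 was dropped, and to 0.26 when this was done for IF1-TG replicate 2. Without IF1-KO replicate 1, 7 probes were again higher and none of the 11 passed the unadjusted threshold. Grin2c was the only 1 of the 11 probes at an unadjusted P under 0.05, with a difference of 0.30 (SE 0.11, adjusted P = 0.673, limma) and no overlap between arrays. Of all kept probes 3.82% were higher and 3.31% lower at that threshold, 3.77% also reached a fold change of 1.5, and the arrays of 13.6% did not overlap. Grin2c no longer passed when any 1 of IF1-TG replicates 2 and 3 or IF1-KO replicates 1 and 2 was left out, with differences of 0.26 to 0.30, nor with slide as a fixed block, at 0.33. Grin3b also did not overlap, but in the opposite direction, with IF1-TG arrays from -4.59 to -4.53 below IF1-KO arrays from -4.48 to -4.34 and a difference of -0.16 (SE 0.11, limma adjusted P = 0.748). The Grin2b dimmer probe was 0.71 higher in IF1-TG mice (SE 0.33, limma adjusted P = 0.712), and ranged from 0.33 without IF1-TG replicate 3 to 1.00 without IF1-TG replicate 2, the only omission under which it passed. It was 0.61 without IF1-KO replicate 1 and 1.42 under the fixed slide block. The Grin3a dimmer probe was 0.38 higher (SE 0.19, limma adjusted P = 0.713). The Grin1 brighter probe, measured on 2 IF1-TG arrays, differed by -0.51 (limma adjusted P = 0.718). The value was -0.06 when IF1-TG replicate 1 was dropped and -0.95 when replicate 3 was, each of which leaves 1 IF1-TG array, and 0.03 under the fixed slide block. The summed level of oligodendrocyte markers was 7.02 to 7.30 on the IF1-TG and 6.46 to 7.0 on the IF1-KO arrays, that of microglia markers 6.04 to 6.23 and 5.79 to 5.96, and that of hippocampal excitatory neuron markers 5.52 to 5.63 and 5.39 to 5.51, each without overlap. Of these lists, 7, 8 and 7 of 10 genes were higher in IF1-TG, and 2 of the oligodendrocyte genes passed the unadjusted threshold. All 8 thalamus markers (median 0.64) and all 8 choroid plexus markers (median 0.87) were higher in IF1-TG, with overlapping summed levels and none past the threshold on its brightest probe. The part of these markers in the receptor values was not tested. Each pair of comparisons shares the arrays of 1 genotype, so the 3 comparisons are not independent.

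The ordering of the genotypes differed between probes. IF1-TG had the highest mean and CRL the lowest for the Grin1 dimmer, both Grin2a, both Grin2b and the Grin3a dimmer probe and for Grin2c. For the Grin1 brighter probe, Grin2d and Grin3b the order was IF1-KO, CRL, IF1-TG. For the Grin3a brighter probe it was IF1-KO, IF1-TG, CRL. Of neighbours in these orders, Grin2c in IF1-TG over IF1-KO was the single pair past the unadjusted threshold.

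The balance between GluN2B and GluN2A, which shifts towards GluN2A as synapses mature, was taken as the log2 difference between the brighter Grin2b and Grin2a probes within each array. Relative to the CRL mean it was 0.28, -0.22 and -0.52 on the IF1-KO arrays, 0.07, 0.21 and -0.28 on the CRL arrays and -1.31, -0.03 and -0.16 on the IF1-TG arrays. IF1-TG replicate 1, the array with the highest Grin2a signal, stood apart, and the other arrays overlapped. The mean differed from CRL by -0.15 in IF1-KO (two-sided exact permutation test, P = 0.7) and by -0.50 in IF1-TG mice (exact permutation test, P = 0.4), and by -0.35 between IF1-TG and IF1-KO mice (exact permutation test, P = 0.7). Without IF1-TG replicate 1, the difference between IF1-TG and CRL was -0.09. Without IF1-KO replicate 1, it was -0.37 between IF1-KO and CRL and -0.13 between IF1-TG and IF1-KO. With 3 arrays against 3, there are 20 splits and the smallest P is 0.1. With the mean of both probes of each gene, the difference from CRL was 0.08 in IF1-KO and 0.06 in IF1-TG mice (exact permutation test, P = 0.6 and P = 0.9), so its sign depended on the probes.

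The genes that work with the receptor were examined as 5 lists of 95 genes in all, by the brightest probe of each gene, and all 95 were measured. In IF1-KO compared with CRL mice, 50 of 95 were higher, with a median of 0.01, none higher and 1 lower at an unadjusted P under 0.05. Of 21905 genes by brightest probe, 1.35% were higher and 1.22% lower. The gene that fell was Shmt1, the cytosolic serine hydroxymethyltransferase that interconverts serine and glycine, in the list of co-agonist and glutamate handling (1 of 17). Its probe gave -5.04, -5.07 and -4.66 on the IF1-KO arrays, -4.33, -4.29 and -4.45 on the CRL arrays and -4.71, -4.41 and -4.69 on the IF1-TG arrays. Every IF1-KO array was below every CRL array, for a difference of -0.57 (SE 0.15, adjusted P = 1.00, limma). Leaving out IF1-KO replicate 1 gave -0.51, which still passed, and again 1 of the 95 genes passed, whereas normexp correction followed by quantile normalization gave -0.28, which did not. A second Shmt1 probe differed by 0.18 (SE 0.34). None of the 20 scaffold genes, 20 kinase and phosphatase genes, 20 trafficking genes or 18 calcium-dependent effectors passed. The smallest P in these lists belonged to Akap9, an anchoring protein that binds GluN1 (-0.46, SE 0.20), Ppp3cb, a catalytic subunit of calcineurin (0.31, SE 0.14), Pacsin1, an endocytic adaptor (-0.21, SE 0.16), and Adcy1, a calcium-stimulated adenylyl cyclase (-0.23, SE 0.14). Without CRL replicate 3, 7 of the 95 genes passed the unadjusted threshold.

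In IF1-TG compared with CRL mice, 60 of the 95 genes were higher, with a median of 0.04, and 3 were higher and 1 lower at an unadjusted P under 0.05, where 4.2% of all genes were higher and 3.93% lower. The 3 higher genes were Ppp3cb (0.45, SE 0.14), Src, a tyrosine kinase that acts on GluN2 subunits (0.53, SE 0.22), and Nos1, the neuronal nitric oxide synthase (0.42, SE 0.18). Src falls outside the naming rule and was chosen with its value known. Its difference was 0.29 when CRL replicate 3 was dropped, and it still passed in 4 of 9 omissions of an array. It did not pass with normexp and quantile normalization, a fixed slide block, a replicate block, a fit of only these genotypes or the trend and robust options. Nos1 passed in 2 of 9 omissions, was 0.27 when CRL replicate 3 was dropped, and did not pass under any of those settings either. Ppp3cb passed in every omission, but not with normexp and quantile normalization (0.37) or a fixed slide block (0.42). Ppp3cb gave 3.40, 3.19 and 3.23 on the IF1-TG arrays and 2.58, 2.93 and 2.97 on the CRL arrays, without overlap. The lower gene was Dlgap2, a postsynaptic scaffold protein, with -0.52, -1.45 and -0.54 on the IF1-TG arrays and -0.09, -0.14 and -0.51 on the CRL arrays. IF1-TG replicate 2 stood far below the others, and the difference of -0.59 (SE 0.25, limma adjusted P = 0.581) was -0.28 without it and did not pass. Dlgap2 passed in 3 of 9 omissions of an array. It did not pass with no filter on dim probes, a slide block, random (-0.56) or fixed (-0.34), a replicate block or a fit of only these genotypes. A second probe of Camk2b, the gene of a CaMKII subunit, was 0.85 higher (SE 0.22, limma adjusted P = 0.413), past a fold change of 1.5, while the brightest Camk2b probe differed by 0.04 (SE 0.17). Without IF1-KO replicate 1, which enters the shared estimate of spread, 2 of the 95 genes passed, and Nos1 and Dlgap2 no longer did. By list, 2 of 20 kinase and phosphatase genes and 1 of 18 calcium-dependent effectors were higher and 1 of 20 scaffold genes was lower. No gene of the trafficking or the co-agonist and glutamate handling list passed, where Nedd4, a ubiquitin ligase (-0.25, SE 0.15), and Shmt1 (-0.25, SE 0.15) had the smallest P. The smallest adjusted P by brightest probe was 0.488 (limma).

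**Figure D5:**
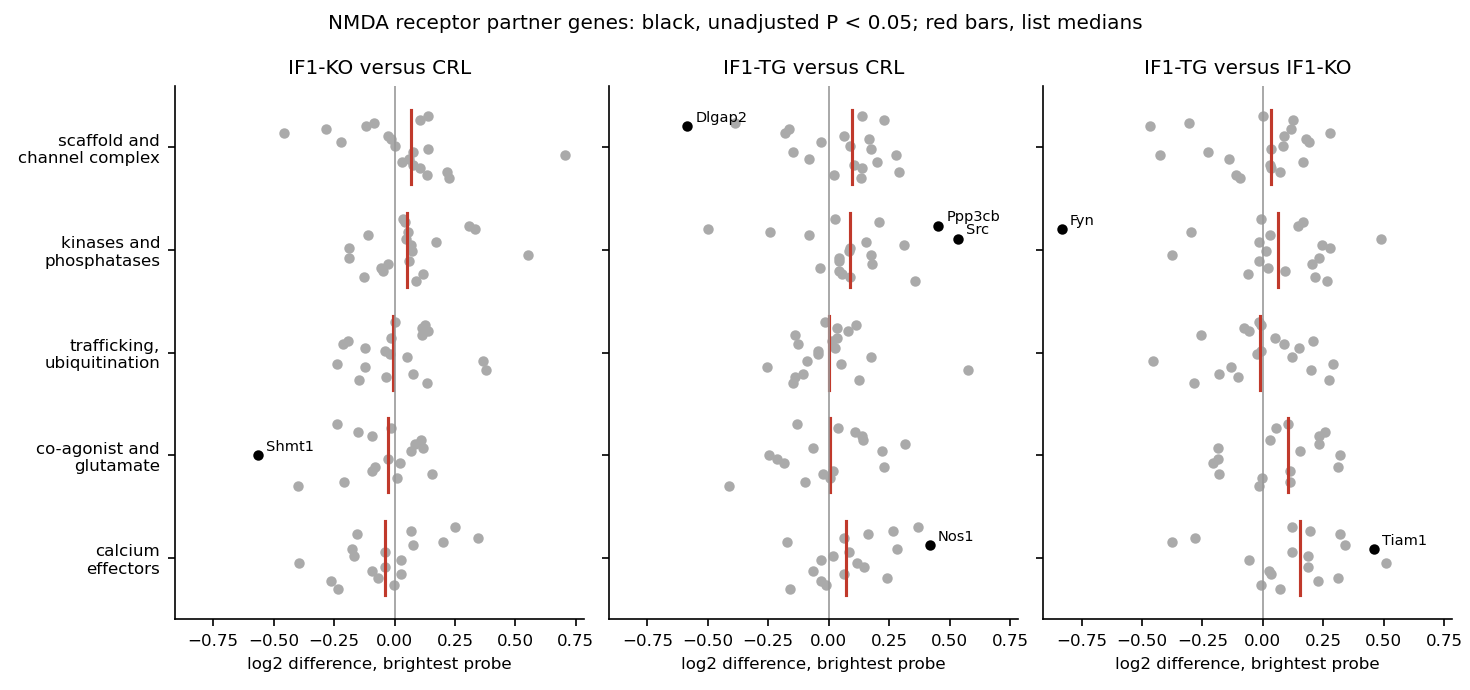
Log2 differences of the 95 partner genes by brightest probe, in the 5 lists, for the 3 pairs of genotypes. Each point is a gene, black points are named and have an unadjusted P below 0.05, and red bars are list medians, which lie between -0.04 and 0.15.

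Of the partner genes compared between the IF1-TG and IF1-KO groups, 58 of 95 genes were higher, with a median of 0.06, and 1 was higher and 1 lower at an unadjusted P under 0.05, where 3.6% of all genes were higher and 3.26% lower. Fyn, a tyrosine kinase that phosphorylates GluN2B, gave -1.87, -1.25 and -1.02 on the IF1-TG arrays and -0.57, -0.55 and -0.52 on the IF1-KO arrays, without overlap. CRL arrays ranged from -1.41 to -0.50 and overlapped with both. The difference of -0.83 (SE 0.27, limma adjusted P = 0.660) was past a fold change of 1.5. Leaving out IF1-TG replicate 1 gave -0.59, and a fixed slide block gave -0.27, and neither passed. Leaving out IF1-KO replicate 1 gave -0.84, which passed. Tiam1, a Rac exchange factor that binds the receptor, was 0.46 higher (SE 0.15, limma adjusted P = 0.660), and 0.58 without IF1-KO replicate 1. It came to 0.33 when IF1-KO replicate 3 was dropped and to 0.30 under the fixed slide block, and passed in neither. The smallest P of the other lists belonged to Dlgap2 (-0.47, SE 0.25), Cask, a scaffold that joins the trafficking complex of GluN2B (0.27, SE 0.15), and Shmt1 (0.32, SE 0.15).

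The genes whose signal was most like each member, among 22788 probes of other genes, were ranked by Pearson's r across arrays with the brighter probe. They were Swsap1 (0.990) and Brf2 (0.987) for Grin1 over 8 arrays. Over 9 arrays they were Klhl15 (0.954) and Slc12a2 (0.936) for Grin2a, Dmrt1 (0.945) and 6530403H02Rik (0.933) for Grin2b, and Decr1 (0.967) and Rpl17 (0.953) for Grin2c. For Grin2d they were Skp1a (0.963) and Nop16 (0.958), for Grin3a Ubfd1 (0.967) and Lrrc59 (0.966), and for Grin3b Isg15 (0.932) and Vstm2a (0.909). None of these pairs named another subunit of the receptor, and with so many candidates and so few arrays, values of this size are a ranking only.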

How the data were processed

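RNA from the hippocampus of 9 mice, 3 of each genotype, was labelled with a single dye and hybridized to Agilent arrays. The authors deposited spot intensities of Agilent Feature Extraction 10.7.3.1, background-subtracted within each array and not normalized between arrays. The mean spot and background intensities, also deposited, served for an alternative. Genotype and replicate number come from the sample labels and slide from the array files. How the study normalized its arrays is not given in the sources used here.

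Processed intensities were taken to log2, and the 75th percentile of each array was subtracted. Control and outlier spots were left out, among them the spot of the Grin1 brighter probe on IF1-TG replicate 2. A probe was kept if it was well above background on each of the 3 arrays of any genotype (27991 of 39429 probes, 21905 gene names). No spot was saturated, and replicates correlated at 0.983 to 0.992. All 9 arrays entered a fit of genotype with lmFit and eBayes (limma 3.58.1, R 4.3.3), with Benjamini-Hochberg adjustment over all kept probes. The study's thresholds were used, an unadjusted P under 0.05 and a fold change of 1.5. The limma P-values set each difference against the spread between arrays of a genotype, pooled over the genotypes and moderated over all kept probes. With 1 mouse per array, this spread does not separate mice from arrays and slides. Scripts were tested on simulated data.

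The subunits, the 5 lists of partner genes and the marker lists were chosen with earlier results of these data known. Named genes are all subunit probes, Atpif1, Camk2a, partner genes past both thresholds on any probe, the gene with the smallest P of each list in each pair, and the 2 genes most like each subunit. Replicate numbers did not pair samples (correlation of deviations -0.17 to 0.12). The alternatives changed the normalization (normexp with an offset of 50 before quantiles, quantiles alone, or the median of each array), the filter (none, or detection everywhere), the model (a slide block, fixed or random, a block of replicate numbers, 2 genotypes at a time, or a robust trend), the handling of paired probes, and the arrays, each left out in turn.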

Additional observations from a re-analysis of the deposited data

How the results depend on the processing

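The Grin2b dimmer probe stayed at an unadjusted P under 0.05 in IF1-TG against CRL in every alternative fitted per probe and without each array, between 0.68 and 1.36 (log2) apart from the fixed slide block. No subunit probe reached that threshold in IF1-KO against CRL except without IF1-TG replicate 2, where the Grin1 dimmer probe did (0.36). Leaving out 1 array, the number of subunit probes at that threshold was 0 to 1 in IF1-KO against CRL, 1 to 5 in IF1-TG against CRL and 0 to 2 in IF1-TG against IF1-KO, and past both thresholds it was 1 to 4 and 0 to 1 in the last 2 pairs. Partner genes at the threshold then ranged from 1 to 7, 1 to 6 and 2 to 5. Precision is limited by the small number of arrays.

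With normexp and quantile normalization, Grin2d (-0.0742) and Grin3b (-0.0248) turned in IF1-KO against CRL, Grin3b turned to 0.00784 in IF1-TG against CRL and 0.0326 in IF1-TG against IF1-KO, where 2 subunit probes passed P and 1 both thresholds, and 4 and 6 partner genes passed in IF1-KO against CRL and in IF1-TG against IF1-KO. With slide as a fixed block, which leaves IF1-TG replicate 3 as the only IF1-TG array compared, Grin2d turned to -0.03 in IF1-KO against CRL and 0.0074 in IF1-TG against IF1-KO, the Grin1 brighter probe to 0.20 in IF1-TG against CRL and 0.0295 in IF1-TG against IF1-KO, and the Grin3a brighter probe to 0.46 in the latter. Then 2 and 1 subunit probes passed both thresholds in the IF1-TG pairs, and 3, 11 and 5 partner genes passed P in the 3 pairs. Partner genes at P numbered 2 in IF1-KO against CRL with slide as a random block, detection on all 9 arrays or fits of only 2 genotypes, and 3 with trend and robust options. In IF1-TG against CRL they numbered 2 with no filter or with trend and robust options and 1 with only 2 genotypes, and in IF1-TG against IF1-KO 4 with only 2 genotypes. With the mean of a gene's probes, the Grin3a difference between IF1-TG and IF1-KO turned to 0.11, and Grin2b minus Grin2a turned to 0.079 in IF1-KO and 0.063 in IF1-TG against CRL, while the Grin2a (0.575) and Grin2b (0.638) means passed P in IF1-TG against CRL. With the replicate block, 0, 4 and 1 subunit probes passed P, unchanged in number, and 2 and 1 partner genes passed in IF1-KO and IF1-TG against CRL. The cause of these changes was not tested.

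Leaving out 1 array also changed signs. The ranges were -0.18 to 0.20 (Grin2a dimmer probe), -0.0172 to 0.10 (Grin2c), -0.0839 to 0.28 (Grin2d) and -0.053 to 0.23 (Grin3a dimmer probe) in IF1-KO against CRL. They were -0.74 to 0.16 (Grin1 brighter probe), -0.31 to 0.053 (Grin2d), -0.11 to 0.30 (Grin3a brighter probe) and -0.0481 to 0.0657 (Grin3b) in IF1-TG against CRL, and -0.0603 to 0.0935 (Grin2b brighter probe) and -0.40 to 0.0911 (Grin3a brighter probe) in IF1-TG against IF1-KO. Grin2b minus Grin2a ranged from -0.37 to 0.0299 in IF1-KO against CRL and from -0.58 to 0.0601 in IF1-TG against IF1-KO.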
